A study of Mus musculus with 6 samples.

Results

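The genes described here are 41 cell cycle and proliferation genes, chosen by symbol from the 24421 gene symbols that each of the 6 expression tables lists. The tables come from RNA-seq of cells that were sorted for TurboRFP out of the olfactory bulbs of adult male mice, 3 control and 3 Sox9 KO, each mouse giving 1 library. Both groups carried the virus AAV-GFAP-iCre-P2a-TurboRFP, injected in the bulb 4 weeks earlier, in which the GFAP promoter, used mostly by astrocytes, drives the recombinase Cre and the red fluorescent protein TurboRFP. Sox9 KO mice were Sox9fl/fl, so that Cre deletes the floxed allele, and control mice were WT, named C57BL/6J in the extract protocol, with no floxed allele. The strain of both groups is labelled C57BL/6.

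Sox9, the deleted transcription factor, had a normalized count of 5556 ± 881 (SD, n = 3) in control and 58.2 ± 5.88 in KO libraries, and no library went against its label. A normalized count here is the number of reads on a gene divided by 1 size factor per library. The libraries held between 18242129 and 86906527 reads on genes, so that 1 read is worth between 0.395 and 1.58 normalized counts, and Rn45s, the ribosomal RNA precursor, took between 14.2% and 22.4% of the reads. The cells are labelled astrocytes, and the 10 astrocyte markers summed to between 545819 and 608626 in control and between 63319 and 74549 in KO libraries, while the 10 microglia markers summed to between 157383 and 181951 in control and between 562086 and 665909 in KO. All 10 astrocyte markers fell and all 10 microglia markers rose at the limits given below, beside 28.8% and 22.2% of all genes tested. Slc1a2, the glutamate transporter of astrocytes, fell by 4.30 on the log2 scale, and Csf1r, the receptor on which microglia depend, rose by 2.0. In such bulk samples fewer cells of a type and less RNA per cell cannot be told apart, and the part that the makeup of the sorted cells has in any value below was not tested.

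Cell division is driven by cyclins, which rise and fall, and by the cyclin-dependent kinases (CDKs) that they switch on. D cyclins with Cdk4 and Cdk6 lift the Rb family's hold on E2F factors, cyclin E with Cdk2 starts DNA replication at origins loaded with the MCM helicase, and cyclins A and B with Cdk1 drive mitosis until the anaphase-promoting complex destroys them. CDK inhibitors of the Cip/Kip and INK4 families act against these kinases. Most mature astrocytes do not divide, although they keep the capacity to, and the adult olfactory bulb also receives neuroblasts, some of which divide on their way.

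All 41 members were above the minimum mean for testing (1 normalized count over the 6 libraries), from Cdc6 with a mean of 29 to Cdkn1a with 15609. Of these, 14 were lower in KO, 5 were higher and 22 were not called, where called means an adjusted p under 0.05 in limma with at least a 1.5-fold difference. The called share was 46.3%, beside 51.0% of the 18413 genes tested. The lower members made up 34.1%, beside 28.8% of all genes, and the higher members 12.2%, beside 22.2%. The members as a group were thus called about as often as other genes, and the median of their log2 fold changes was -0.25, beside -0.07 for all genes tested. That median was 0.25, beside 0.20 for all genes, under quantile normalization, and ran from -0.42 without control replicate 1 to -0.11 without control replicate 3. The KO libraries were all lower than the control libraries in 14 members (34.1%, beside 34.7% of all genes) and all higher in 8 (19.5%, beside 32.4%), so that 53.7% did not overlap, beside 67.2%. The same 5 and 14 members were called by edgeR and DESeq2 on whole reads. The number higher depended on the scaling: it was 3 beside 15 lower with every library scaled to the same total, 1 beside 16 when Rn45s was left out of that total, and 14 beside 12 under quantile normalization. Of the 18413 genes tested, 2936 were then higher and 6191 lower, 2630 higher and 6597 lower, and 5369 higher and 4100 lower. The shortfall of higher members beside all genes was thus not seen under quantile normalization. No member was called in the opposite direction under any of these scalings.

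**Figure D1:**
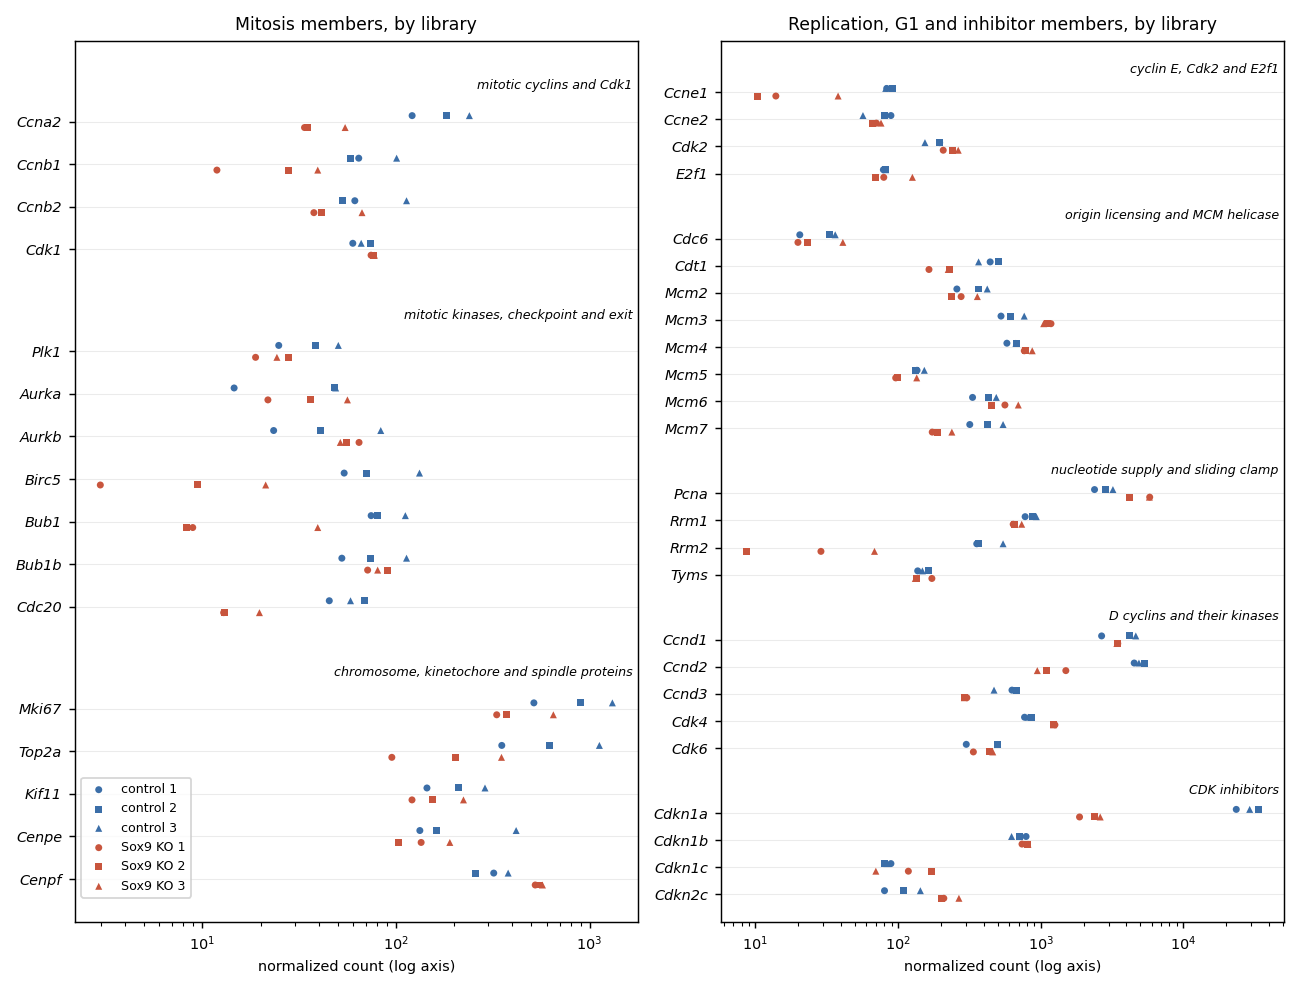
Normalized counts (x axis, logarithmic) of the 41 members in each library, with control above and KO below the line of each gene, and the symbol shape giving the replicate number. Cdkn1a lies between 23573 and 33920 in control and between 1875 and 2619 in KO libraries, while Cdk1 stays between 59.9 and 77.5 in all 6.

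**Figure D2:**
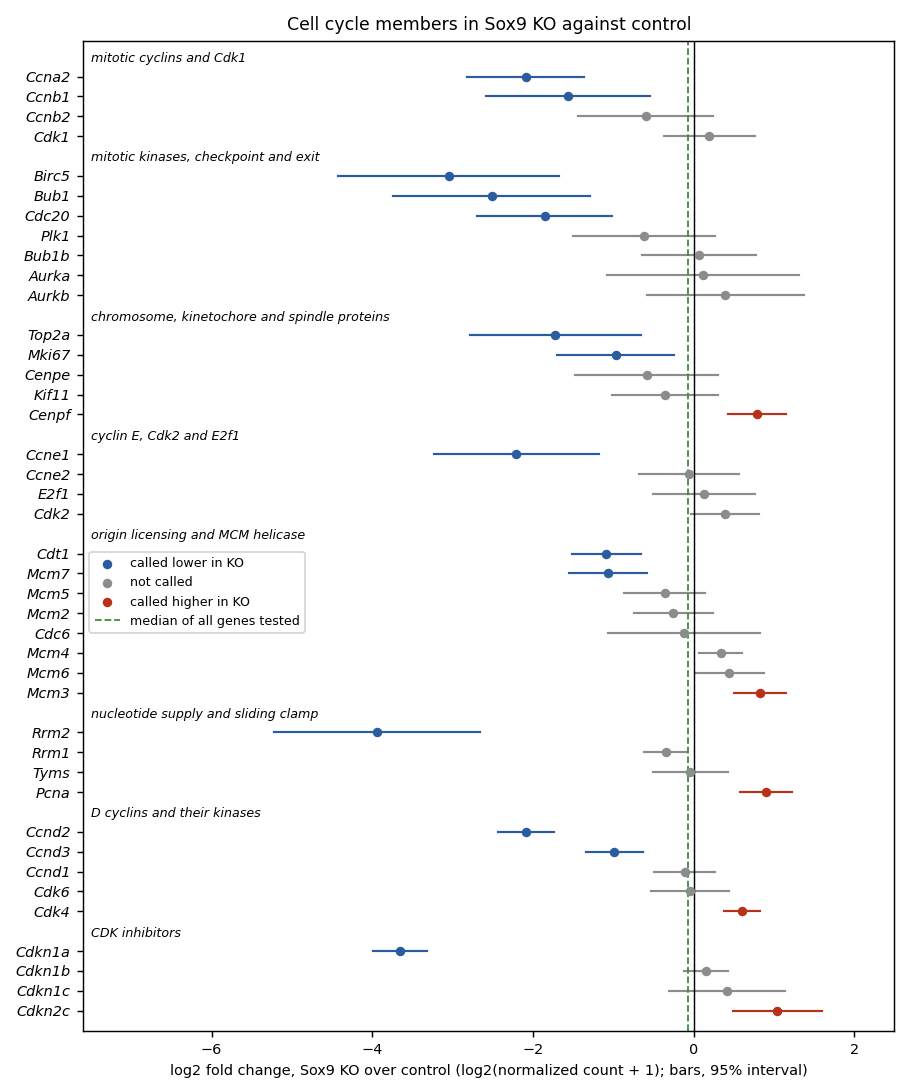
Log2 fold change of KO over control (points) with its 95% interval (bars) for each member, ordered within 8 classes. Intervals of the 14 lower members lie left of 0 and those of the 5 higher members right of it, and the dashed line is the median of all genes tested.

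Among the CDK inhibitors, Cdkn1a, which encodes p21, had the highest normalized count of all members and fell most in absolute terms. It stood at 23573, 33920 and 29280 in control and at 1875, 2385 and 2619 in KO libraries. The highest KO library was well under the lowest control library, and the means of 28924 ± 5183 and 2293 ± 380 differed 12.6-fold (log2 fold change -3.65, SE 0.15, adjusted p = 3.06e-08). Cdkn1b, which encodes p27 of the same family, was at 791, 714 and 626 in control and at 741, 812 and 816 in KO libraries, with overlapping groups and a 95% interval of the log2 fold change from -0.12 to 0.43. Cdkn1c, which encodes p57, ranged from 79.8 to 89.1 in control and from 69.9 to 172 in KO libraries and was not called, although its log2 fold change reached 0.75 (adjusted p = 0.0449) without KO replicate 3. Cdkn2c, which encodes the INK4 protein p18, was at 80.4, 109 and 143 in control and at 209, 201 and 267 in KO libraries. Its groups did not overlap and it rose 2.03-fold (log2 fold change 1.04, SE 0.25, adjusted p = 0.00435). One inhibitor thus fell, another rose and the other two overlapped between groups. Per kb of exon, Cdkn1a stood at 69.3 ± 16.8 times Cdkn1b in control and at 4.85 ± 0.57 times in KO libraries.

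Cdkn1a is the best known target of the transcription factor p53, and 18 other genes, Trp53 and known p53 targets, were examined beside it. Of these, 13 fell (72.2%, beside 28.8% of all genes), 2 rose and 3 were not called, with a median log2 fold change of -1.55. Trp53 itself, which encodes p53, was at 1651, 1707 and 1363 in control and at 1526, 1565 and 1426 in KO libraries, and its groups overlapped. Ccng1, a cyclin G with no known role in driving the cycle, went from 35115 ± 6455 to 7185 ± 886 (log2 fold change -2.28, SE 0.14, adjusted p = 2.82e-07). Zmat3, an RNA-binding p53 target, went from 10971 ± 1086 to 1656 ± 288, a log2 fold change of -2.74. Mdm2, the ubiquitin ligase that removes p53, had a log2 fold change of -0.32, short of 1.5-fold, with every KO library under every control library. Btg2, an antiproliferative target that is also an immediate early gene, went the other way, from 10357 ± 1101 to 35400 ± 2873 (log2 fold change 1.78). Other genes of the list had log2 fold changes further below 0 than Cdkn1a, and 3 receptor or signalling genes among them were chosen for naming after their values were seen. They were Tnfrsf10b, a death receptor (1682 ± 79.4 to 37.0 ± 2.39), Eda2r, a receptor of the same superfamily (1783 ± 361 to 76.8 ± 34.6), and Phlda3, an inhibitor of Akt signalling (1162 ± 144 to 55.9 ± 31.2). Each of the 6 leave-one-out fits called 15 of the 18 genes.

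**Figure D3:**
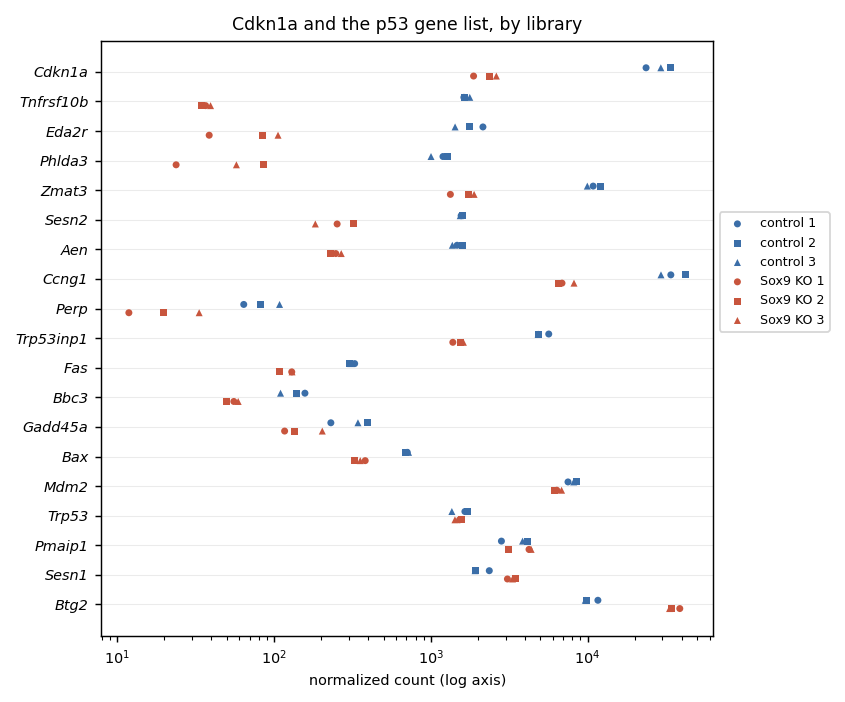
Normalized counts (x axis, logarithmic) of Cdkn1a and of the 18 genes of the p53 list in each library, ordered by log2 fold change below Cdkn1a. From Tnfrsf10b down to Bax the KO libraries lie left of the control libraries, the groups overlap for Trp53, and Btg2 lies to the right in KO.

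The 250 bases before the start of the longer RefSeq transcript of Cdkn1a are printed because this gene had the widest difference in normalized counts among the members. The window is chr17:29090729-29090978 on the plus strand of GRCm38.p6, before the RefSeq start, and GENCODE vM21 places its last 3 bases inside the gene. The capitals mark the letters CATG, any 6 bases and CATG again, the pairing that the core of a classical p53 response element shows. This motif was searched after the sequence had been seen, and it reads the same on both strands.
Cdkn1a: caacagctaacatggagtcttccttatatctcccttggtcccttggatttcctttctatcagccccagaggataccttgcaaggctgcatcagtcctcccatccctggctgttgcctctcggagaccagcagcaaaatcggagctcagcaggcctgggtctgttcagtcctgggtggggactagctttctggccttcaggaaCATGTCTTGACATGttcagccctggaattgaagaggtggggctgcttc

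The match begins 48 bases before the start of this transcript. The window of a second RefSeq start of Cdkn1a, chr17:29093519-29093818, does not hold the motif. A window of 300 bases around the start holds this motif in 0.77% of the 27025 genes of the RefSeq promoter table, in 1 of the 34 members found there, and in none of the 13 genes of the p53 list found there. The match is a description of the letters, and binding was not measured.

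Of the D cyclins and their kinases, Ccnd2 and Ccnd3 fell, Cdk4 rose, and Ccnd1 and Cdk6 overlapped between groups. Ccnd2, the cyclin D2 gene, was at 4535, 5360 and 4896 in control and at 1503, 1092 and 948 in KO libraries. The groups lay far apart, with a 4.18-fold difference (log2 fold change -2.08, SE 0.15, adjusted p = 1.14e-06). Ccnd3 was at 630, 681 and 471 in control and at 304, 292 and 292 in KO libraries, which again did not overlap (log2 fold change -0.99, SE 0.16, adjusted p = 0.000363). Ccnd1 was at 2679, 4172 and 4653 in control and at 3477, 3451 and 3427 in KO libraries, so that the KO values lay inside the control range, with a 95% interval from -0.50 to 0.27. Per kb of exon, Ccnd1 was the D cyclin with the highest mean level in both groups, at 1025 in control and 923 in KO libraries, and the level of Ccnd2 relative to it went from 0.749 ± 0.181 to 0.190 ± 0.045. The catalytic partner Cdk4 was at 772, 868 and 816 in control and at 1260, 1238 and 1231 in KO libraries. Its groups were tight and apart, yet the difference of 1.52-fold was close to the limit of 1.5-fold (log2 fold change 0.60, SE 0.10, adjusted p = 0.000404). It was 0.56 without control replicate 1 and 0.36 with every library scaled to the same total, which ended the call both times. Cdk6, the other partner, ranged from 301 to 500 in control and from 338 to 462 in KO libraries.

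Of the cyclin E genes, Cdk2 and E2f1, Ccne1 fell and the other members were not called. Ccne1 was at 83.3, 90.8 and 82.0 in control and at 13.9, 10.3 and 38 in KO libraries, with KO replicate 3 highest in its group and still under all control libraries (log2 fold change -2.21, SE 0.46, adjusted p = 0.00191). Ccne2, the second cyclin E gene, was at 89.1, 79.8 and 56.7 in control and at 70.5, 66.7 and 76.0 in KO libraries, with overlapping groups. Cdk2, the kinase they share, was at 196, 195 and 154 in control and at 207, 242 and 264 in KO libraries, higher in each KO library but not called (log2 fold change 0.39, 95% interval -0.03 to 0.81, adjusted p = 0.0998). E2f1, the factor that turns on S-phase genes, ranged from 78.9 to 82.0 in control and from 69.5 to 126 in KO libraries.

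The origin licensing genes and the 6 subunits of the MCM helicase did not move as a unit. Cdt1, which loads the helicase on origins, was at 443, 504 and 367 in control and at 165, 230 and 225 in KO libraries, without overlap (log2 fold change -1.08, SE 0.19, adjusted p = 0.0006). Its partner Cdc6, at 20.5 to 36.3 in control and 19.9 to 41 in KO libraries, overlapped. Mcm7 was at 319, 422 and 545 in control and at 174, 190 and 239 in KO libraries, all lower (log2 fold change -1.07, SE 0.22, adjusted p = 0.0016). Mcm3 was at 528, 614 and 768 in control and at 1182, 1122 and 1051 in KO libraries, all higher (log2 fold change 0.83, SE 0.14, adjusted p = 0.000552). The proteins of both genes sit in the same ring in equal number. Mcm4 was higher in each KO library, at 810 ± 55.7 beside 642 ± 53.8, with an adjusted p of 0.0307 but less than 1.5-fold. Mcm2, Mcm5 and Mcm6 had log2 fold changes of -0.25, -0.36 and 0.45, with overlapping groups, and Mcm6 passed the limits without KO replicate 2 (0.60, adjusted p = 0.0268). Per kb of exon, the 6 subunits spanned 5.16-fold in control, from Mcm5 at 40.7 to Mcm3 at 210, and 11.5-fold in KO libraries, from Mcm5 at 32.0 to Mcm3 at 369.

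The genes of nucleotide supply and the sliding clamp gave both the lowest fold change of all members and one of the higher ones. Rrm2, the subunit of ribonucleotide reductase that dividing cells make in S phase, was at 357, 368 and 545 in control and at 28.8, 8.68 and 68.4 in KO libraries. These came to 29, 22 and 45 reads in KO, and the groups differed 12-fold (log2 fold change -3.94, SE 0.57, adjusted p = 0.000163). The log2 fold change was -3.19 without KO replicate 2 and -4.62 without KO replicate 3. Rrm1, the larger subunit, which is present throughout the cycle, was at 779, 880 and 933 in control and at 642, 656 and 737 in KO libraries. It was lower in each KO library by less than 1.5-fold (log2 fold change -0.35, adjusted p = 0.0276). With every library scaled to the same total it was at -0.59, and at -0.67 with Rn45s left out of that total, and was called lower both times. Per kb of exon, Rrm2 stood at 0.888 ± 0.158 of Rrm1 in control and at 0.092 ± 0.073 in KO libraries, so that the subunits were near equal in control libraries and far apart in KO libraries. Pcna, the clamp that holds DNA polymerase on its template and also serves DNA repair, was at 2389, 2866 and 3215 in control and at 5824, 4227 and 5794 in KO libraries. It rose 1.87-fold without overlap (log2 fold change 0.90, SE 0.15, adjusted p = 0.000364). Tyms, thymidylate synthase, ranged from 137 to 164 in control and from 132 to 173 in KO libraries, beside a processed pseudogene with a row of its own that could share reads with it.

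Of the 16 members that act in mitosis, 7 fell (43.8%, beside 28.8% of all genes), 1 rose (6.25%, beside 22.2%) and 8 were not called, with a median log2 fold change of -0.61. Of the 16 members of replication and G1/S, 4 fell (25%, close to the share of all genes) and 2 rose (12.5%), with a median of -0.09. Ccna2, cyclin A2, was at 121, 183 and 240 in control and at 33.8, 35.1 and 54.7 in KO libraries, a 4.40-fold difference without overlap (log2 fold change -2.09, SE 0.33, adjusted p = 0.000259). Ccnb1, cyclin B1, was at 64.3, 58.5 and 101 in control and at 11.9, 28.0 and 39.5 in KO libraries, all lower (log2 fold change -1.57, SE 0.46, adjusted p = 0.0127). Without control replicate 3 it was at -1.33 with an adjusted p of 0.0752, and was no longer called. Ccnb2, cyclin B2, ranged from 53 to 113 in control and from 37.7 to 66.8 in KO libraries, with overlap. Cdk1, the kinase these cyclins activate, was at 59.9, 73.6 and 66.2 in control and at 74.5, 76.6 and 77.5 in KO libraries. It was slightly higher in each KO library, and the 95% interval of its log2 fold change ran from -0.37 to 0.77, which does not reach the values of Ccna2 or Ccnb1. Per kb of exon, Ccna2 was 3.34 ± 1.01 times Cdk1 in control and 0.664 ± 0.178 times in KO libraries.

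Among the mitotic kinases and checkpoint genes, Birc5, Bub1 and Cdc20 fell. Birc5, which encodes survivin of the chromosomal passenger complex, was at 54.1, 70.9 and 132 in control and at 2.98, 9.47 and 21.3 in KO libraries, the lowest of which held 3 reads. The groups lay apart by 7.63-fold, with a wide error (log2 fold change -3.05, SE 0.62, adjusted p = 0.00157), and a log2 fold change of -2.40 without KO replicate 1 and -3.65 without KO replicate 3. Its partner kinase Aurkb ranged from 23.4 to 83.5 in control and from 51.7 to 64.5 in KO libraries. The ratio of Birc5 to Aurkb per kb went from 1.08 ± 0.22 to 0.120 ± 0.107. Bub1, a checkpoint kinase, was at 74.5, 80.5 and 112 in control and at 8.93, 8.29 and 39.5 in KO libraries, apart but with KO replicate 3 several times above the other two (log2 fold change -2.51, SE 0.55, adjusted p = 0.00254), and at -3.20 without that library. Bub1b, its relative in the same checkpoint, was at 52.6, 74.3 and 113 in control and at 71.5, 90.0 and 80.5 in KO libraries, inside the control range. Cdc20, the activator of the anaphase-promoting complex, was at 45.3, 68.8 and 58.3 in control and at 12.9, 13 and 19.7 in KO libraries, without overlap (log2 fold change -1.86, SE 0.38, adjusted p = 0.00156). Plk1 and Aurka, kinases of spindle assembly, overlapped, with log2 fold changes of -0.62 and 0.12 and 95% intervals from -1.50 to 0.27 and from -1.07 to 1.31.

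The proliferation markers Mki67 and Top2a were the least secure of the lower members. Mki67, whose protein Ki-67 coats mitotic chromosomes, was at 516, 895 and 1311 in control and at 332, 371 and 650 in KO libraries. KO replicate 3 lay above control replicate 1, so that the groups overlapped although the gene was called (log2 fold change -0.97, SE 0.33, adjusted p = 0.0256). The call was lost without control replicate 2 (adjusted p = 0.108), control replicate 3 (0.154), KO replicate 1 (0.0900) or KO replicate 2 (0.0889). Top2a, topoisomerase II alpha, was at 352, 623 and 1124 in control and at 95.3, 204 and 351 in KO libraries, with KO replicate 3 barely under control replicate 1 (log2 fold change -1.72, SE 0.48, adjusted p = 0.00962). Its adjusted p was 0.0536 without control replicate 2 and 0.0804 without control replicate 3. Cenpf, a large kinetochore protein, went the other way, at 320, 259 and 380 in control and 524, 550 and 571 in KO libraries, without overlap (log2 fold change 0.79, SE 0.16, adjusted p = 0.00159). Scaling every library to the same total brought it to 0.55, short of 1.5-fold. Kif11 and Cenpe, motor proteins of the spindle and kinetochore, had log2 fold changes of -0.36 and -0.59 with overlapping groups.

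**Figure D4:**
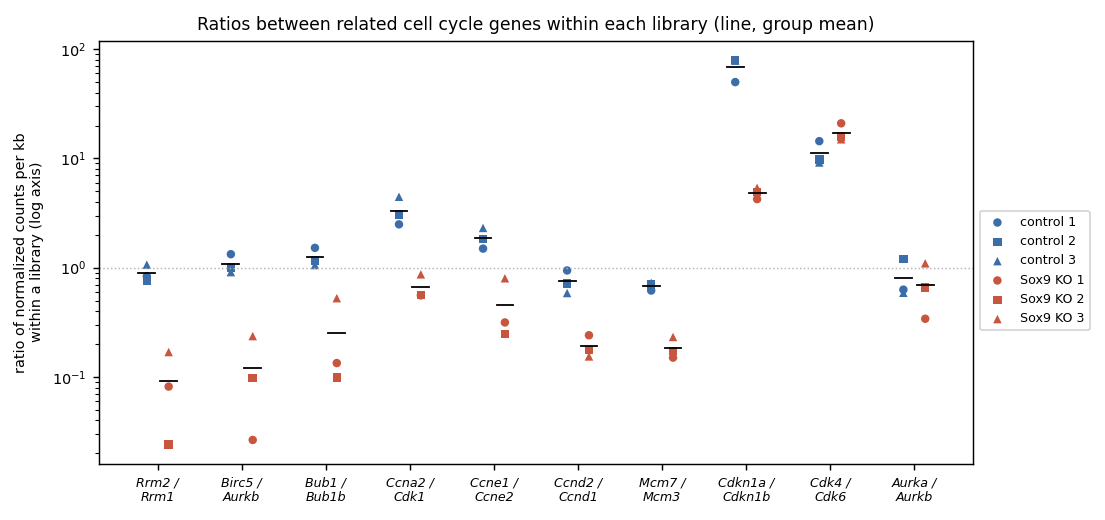
Ratio of the normalized counts per kb of exon of related genes (y axis, logarithmic) in each library, with the group mean as a line. The KO libraries lie under the control libraries for the first 8 ratios and above them for Cdk4 over Cdk6, and the groups overlap for Aurka over Aurkb.

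Ratios within a library do not depend on its size factor, and 14 pairs of related members were taken, with no test. In 11 of them every KO library lay under every control library, in 2 (Cdk4 over Cdk6 and Cenpf over Cenpe) every KO library lay above, and in 1 (Aurka over Aurkb, at 0.805 ± 0.339 and 0.698 ± 0.379) they overlapped. These counts restate the calls of single members and add no support to them. In the 11 pairs the numerator had been called lower and the denominator had not. In the 2 pairs the numerator had been called higher and the denominator had not, and neither Aurka nor Aurkb was called. The pairs were picked, no share for other pairs of genes was computed, and 67.2% of single genes already did not overlap between the groups. Bub1 over Bub1b went from 1.25 ± 0.24 to 0.253 ± 0.237, Ccne1 over Ccne2 from 1.88 ± 0.41 to 0.454 ± 0.302, and Mcm7 over Mcm3 from 0.683 ± 0.057 to 0.185 ± 0.042. Any single ratio tested by exact permutation of 3 and 3 libraries could not give a two-sided p below 0.1.

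Replicates differed more in the mitosis members than over all genes with a mean of at least 10. Control replicate 3 was the highest control library for 14 of the 16 mitosis members, and KO replicate 3 was the highest KO library for 13 of them. Over all 15561 genes with a mean of at least 10, these libraries were the highest in their groups for 5205 and 4854 genes. Relative to the group mean, the median mitosis member was at 66.3% in control replicate 1, 91.6% in control replicate 2 and 135% in control replicate 3. In the KO group the corresponding medians were 78.5%, 93.6% and 134%. The median coefficient of variation of the mitosis members was 36.1% in control and 31.0% in KO libraries, beside 12.4% and 13.3% for all those genes. Those genes were not matched in level to the mitosis members, whose means ran from 30.8 to 679. Control replicate 3 and KO replicate 3 were also the libraries with the fewest reads in their groups. Control replicate 1 held nearly as few, 20780924 beside 18242129, and was the lowest control library for 13 of the 16 mitosis members. The part of depth was not tested. The labels do not say that a number marks mice that belong together.

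**Figure D5:**
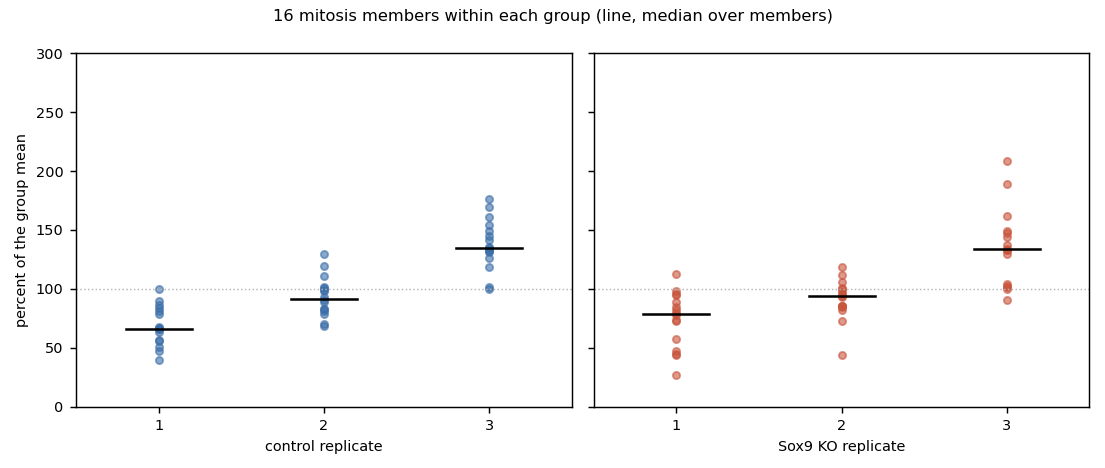
Each of the 16 mitosis members in each library as a percentage of the mean of its group (y axis), with the median over members as a line. The median is 135% in control replicate 3 and 134% in KO replicate 3, and below 100% in the other 4 libraries.

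Promoter letters were compared with these calls, since genes of mitosis and of replication are known to carry different elements. The cell cycle homology region (CHR, written TTTGAA) and the CCAAT box are known from mitosis promoters, and E2F elements (written TTTGGCGC or TTTCCCGC or TTTCGCGC or TTTGCCGC) from replication promoters. RefSeq windows of 250 bases before and 50 bases after the start were found for 34 of the 41 members, and both strands were searched. Those of Ccna2, Ccne2, Ccnd1, Ccnd2, Mcm4, Aurkb and Cdkn1c were not analysed here. The CHR letters were in 10 of 14 mitosis members (71.4%) and 1 of 14 replication and G1/S members, beside 18.1% of all genes in the table. E2F letters were in 7 of the 14 replication and G1/S members (50%) and in 1 mitosis member, beside 2.32%. CCAAT was in 13 mitosis members (92.9%) and 9 replication and G1/S members (64.3%), beside 37.9%. The letters thus differed between the classes. Within the mitosis members, CHR was in 3 of 6 that fell and in 7 of 8 that did not. Neither the difference by class nor that by call was tested.

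The windows of 2 mitosis members with unlike responses are shown, Cdk1, which was not called, and Cdc20, which fell. They are chr10:69352913-69353162 and chr4:118437344-118437593 of GRCm38.p6, both on the minus strand and both upstream of the RefSeq start, and the annotation GENCODE vM21 places their last 26 and 9 bases in the first exon. The capitals mark TTTGAA, TTTCGCGC and the CCAAT box, which reads ATTGG where it lies on the other strand.
Cdk1: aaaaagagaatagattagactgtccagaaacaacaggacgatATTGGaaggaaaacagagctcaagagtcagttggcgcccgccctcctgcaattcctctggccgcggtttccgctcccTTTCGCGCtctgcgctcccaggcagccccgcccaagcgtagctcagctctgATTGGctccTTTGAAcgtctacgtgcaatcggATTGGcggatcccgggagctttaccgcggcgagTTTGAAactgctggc
Cdc20: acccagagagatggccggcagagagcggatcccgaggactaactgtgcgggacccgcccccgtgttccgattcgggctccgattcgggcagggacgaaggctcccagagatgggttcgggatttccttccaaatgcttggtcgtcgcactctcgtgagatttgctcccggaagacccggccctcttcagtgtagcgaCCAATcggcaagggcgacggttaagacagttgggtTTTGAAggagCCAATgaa

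Cdk1 holds TTTGAA at 2 places, beginning 71 and 15 bases before the start, and Cdc20 holds it once, 18 bases before the start. Both also hold CCAAT boxes, so that the gene that fell and the gene that was not called share these letters.

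The subunits of ribonucleotide reductase are shown for the same reason, since Rrm2 fell 12-fold and the difference in Rrm1 was under 1.5-fold, although 2 other scalings called Rrm1 lower. The windows are chr12:24708004-24708253 for Rrm2 and chr7:102441445-102441694 for Rrm1, both on the plus strand of GRCm38.p6 and upstream of the start, with the last 13 bases of the Rrm2 window in its first exon in GENCODE vM21. The capitals mark the CCAAT box.
Rrm2: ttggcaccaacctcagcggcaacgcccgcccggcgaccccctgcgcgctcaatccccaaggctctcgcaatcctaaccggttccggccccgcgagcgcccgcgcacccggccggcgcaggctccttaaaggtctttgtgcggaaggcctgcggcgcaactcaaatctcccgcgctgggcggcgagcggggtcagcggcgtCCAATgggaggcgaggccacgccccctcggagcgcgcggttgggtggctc
Rrm1: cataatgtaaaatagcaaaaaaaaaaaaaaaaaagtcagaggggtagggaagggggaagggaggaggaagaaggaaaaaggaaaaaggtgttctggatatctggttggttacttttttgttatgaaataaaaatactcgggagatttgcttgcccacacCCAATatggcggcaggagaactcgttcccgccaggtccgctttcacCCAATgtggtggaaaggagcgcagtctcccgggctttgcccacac

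Rrm2 holds CCAAT once, beginning 50 bases before the start, and Rrm1 holds it 91 and 45 bases before the start. Neither window holds the CHR letters or any of the E2F spellings, which says only that these letters are not in these 300 bases.

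Of 51 other mitosis genes, 22 fell (43.1%, beside 28.8% of all genes), 6 rose (11.8%, beside 22.2%) and 23 were not called, with a median log2 fold change of -0.89. The 4 with the highest means were not called. These were Pttg1, or securin (log2 fold change 0.47), Bub3 of the checkpoint (0.11) and the condensin subunits Smc4 (0.48) and Smc2 (0.51). Ckap2, a spindle protein that was chosen after its values were seen, was at 680, 693 and 511 in control and at 12.9, 26.8 and 41 in KO libraries, far apart (log2 fold change -4.62, SE 0.37, adjusted p = 1.86e-06). Incenp, the scaffold of the complex that holds Birc5 and Aurkb, also chosen after its values were seen, was at 191, 180 and 197 in control and at 434, 475 and 482 in KO libraries (log2 fold change 1.29).

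Of 44 other DNA replication genes, 6 fell (13.6%, beside 28.8% of all genes), 9 rose (20.5%, beside 22.2%) and 29 were not called, with a median of 0.16. Orc3 and Orc4 of the origin recognition complex, Rfc1 of the clamp loader and Slbp, which binds histone mRNA, had the highest means, with log2 fold changes of 0.57, 0.27, 0.36 and 0.52. Every KO library was higher than every control library for each of them, with differences under 1.5-fold.

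Of 17 genes of the Rb family, the E2F factors and the DREAM complex that silences cell cycle genes, 4 rose (23.5%), 5 fell (29.4%) and 8 were not called. These called shares are close to those of all genes. The groups did not overlap in 88.2% of the 17, beside 67.2% of all genes. Every KO library was higher in 9 (52.9%, beside 32.4%) and lower in 6 (35.3%, beside 34.7%). Rb1, the retinoblastoma gene, went from 5964 ± 460 to 8044 ± 433, a log2 fold change of 0.43 without overlap and under 1.5-fold. Rbl2 (-0.13), Tfdp1, the partner of E2F factors (-0.50), and Rbbp4 (0.33), were not called either. Among 5 INK4 inhibitors and inhibitory kinases, 1 rose (20%, beside 22.2% of all genes), 3 fell (60%, beside 28.8%) and 1 was not called, and without control replicate 2 the number called was 2 in place of 4. Wee1, the kinase that holds Cdk1 inactive, was at 305, 439 and 301 in control and at 68.5, 61.6 and 125 in KO libraries, all lower (log2 fold change -2.07, SE 0.29, adjusted p = 0.000115). Pkmyt1, a second kinase that inhibits Cdk1, and the INK4 gene Cdkn2d fell by 1.21 and 0.89 on the log2 scale, and Cdkn2b had a log2 fold change of 1.17 with overlapping groups.

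Marker sums of several other cell types that could divide in the bulb or enter the sort were lower in KO libraries, and those of microglia, border macrophages and endothelial cells were higher on average, those of microglia by 3.79 times and those of the other types with ranges that overlap the control. The median log2 fold changes of the border macrophage and endothelial markers were -0.73 and -0.53, so that their sums and their median marker went opposite ways. The 10 markers of neuroblasts and immature interneurons summed to between 5404 and 7731 in control and between 376 and 598 in KO libraries, and all 10 fell. The 3 progenitor markers summed to between 6680 and 7427 in control and between 190 and 346 in KO libraries and all fell, and the 6 markers of oligodendrocyte precursors, at 6820 to 7717 in control and 578 to 907 in KO libraries, fell as well. The part of these cells in the values of the members was not tested. Of the remaining lists, all 5 oligodendrocyte markers, 5 of 6 mature neuron, 3 of 4 mural cell, 3 of 4 olfactory ensheathing cell, 4 of 6 border macrophage, 2 of 5 endothelial and 3 of 8 lymphocyte and neutrophil markers fell, and 1 border macrophage and 1 endothelial marker rose. Of all genes tested, 28.8% fell and 22.2% rose. The shares that fell in the endothelial (40%) and lymphocyte and neutrophil (37.5%) lists are not far from this. The same holds for the shares that rose in the border macrophage (16.7%) and endothelial (20%) lists. The lymphocyte and neutrophil markers summed to 5945 in control replicate 2 and to between 230 and 1426 in the other 5 libraries.

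Several members share exons with a neighbouring gene, and no source used here gives whether strand was used in counting. Ccna2 overlaps Exosc9, Cdc20 overlaps Elovl1, Ccne2 overlaps Ints8, Mcm7 overlaps Ap4m1 and Cops6, Ccnd3 overlaps Bysl, and Cdk4 overlaps Tspan31 in the exons of GENCODE vM21, so that part of their counts could belong to the neighbour.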

How the data were processed

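RNA was taken from TurboRFP-positive olfactory bulb cells, and libraries were made from total RNA with the NuGEN Trio kit. Per the labels and methods, the authors aligned them with STAR 2.5.0a to mm10, made counts per gene and normalized these with DESeq2 1.20.0. Neither the annotation nor the use of strand in counting is stated. The deposited signal values carry the name RPM, but in all 6 libraries 100% of them come out whole, to within 0.01 read, once divided by their smallest step, whose inverse is the median-of-ratios size factor of the resulting reads. They are therefore read counts divided by a size factor. Each table lists 24421 symbols, of which 27 are dates made by a spreadsheet. The design had assumed values in RPM, and its pseudocount and minimum mean were kept as numbers.

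Genes with a mean of at least 1 (18413 genes) entered limma 3.58.1 (R 4.3.3), which compared Sox9 KO and control libraries as log2(normalized count + 1) with a variance trend, two-sided moderated p-values and Benjamini-Hochberg adjustment over all genes tested. Fold changes are on this scale and understate changes of low genes. A gene was called at an adjusted p of 0.05 and 1.5-fold. Ratios given as folds are of group means, and errors are SD over 3 mice unless named SE. The recovered reads were also tested with edgeR 4.0.16 (quasi-likelihood) and DESeq2 1.42.0. Lengths per kb are merged exons of GENCODE vM21 (GRCm38). Replicate numbers were not treated as pairs. The number of reads limits the precision.

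The members, the 6 further gene lists and the 12 marker lists were chosen with earlier results of these data known, from general knowledge of their function. The genes named are all members, Sox9, Rn45s, up to 4 genes with the highest means in each further list, and up to 3 in the astrocyte and microglia lists. Tnfrsf10b, Eda2r, Phlda3, Ckap2, Incenp, Rbl1, Lin9, Cdkn2a, Cdk7 and Trp53 are exceptions, named once their values had been seen. In the alternatives, 1 choice was changed at a time: pseudocount, low-value filter, scaling, variance trend, replicate block, tool, unadjusted p or 1 library left out.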

Additional observations from a re-analysis of the deposited data

How the results depend on the processing

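Of the 14 members lower in KO, 11 were called lower in the reported fit and in all 18 alternatives, the exceptions being Ccnb1, Mki67 and Top2a; of the 5 higher members, Cdkn2c was. The number of higher members was 3 with every library scaled to the same total, 1 with Rn45s left out of the total and 14 under quantile normalization, and the median of the members was then -0.50, -0.58 and 0.25. These scalings moved the median of all genes by -0.23, -0.31 and 0.27, and the share of called genes that were lower was 67.8%, 71.5% and 43.3%, beside 56.4% in the reported fit. The transcriptional cyclins and CDKs had 3 called genes with Rn45s left out of the total. Leaving out each library in turn gave 4 to 6 higher and 11 to 14 lower members, a median from -0.42 to -0.11 and 2 to 4 called INK4 genes and inhibitory kinases.

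Changes of sign occurred only among members that were not called in the reported fit. Under quantile normalization the log2 fold changes were 0.25 for Ccnb2, 0.23 for Plk1, 0.24 for Kif11, 0.0091 for Cenpe, 0.77 for Ccne2, 0.74 for Cdc6, 0.16 for Mcm2, 0.36 for Mcm5, 0.62 for Tyms and 0.28 for Cdk6. With the same total they were -0.043 for Cdk1, -0.12 for Aurka, -0.17 for Bub1b, -0.11 for E2f1 and -0.084 for Cdkn1b, and with Rn45s left out of the total -0.13, -0.20, -0.25, -0.19 and -0.17 for the same genes. Quantile normalization also called members higher that were not called in the reported fit. These were Aurkb (1.22), Cdk1 (1.02), Cdk2 (0.94), E2f1 (0.92), Bub1b (0.86), Ccne2 (0.77), Mcm6 (0.71), Tyms (0.62) and Cdkn1c. In edgeR, Tyms was at 0.014. Over the fits without 1 library, the values ranged from -0.44 to 0.46 for Aurka, -0.031 to 0.87 for Aurkb, -0.19 to 0.36 for Bub1b, -0.25 to 0.075 for Ccne2, -0.12 to 0.31 for E2f1, -0.42 to 0.087 for Cdc6, -0.16 to 0.030 for Tyms, -0.35 to 0.046 for Ccnd1 and -0.29 to 0.094 for Cdk6. The cause of these moves was not tested. The replicate block gave 5 higher and 14 lower members and changed no member's call. With it the adjusted p in limma fell to 2.26e-05 for Top2a and to 0.00065 for Mki67. It rose to 0.00384 for Cdc20 and to 0.00256 for Cenpf. Over the 18413 genes tested, same-numbered libraries did not deviate together, with correlations of -0.051, -0.013 and -0.013. No library correlated best with its own number. The 16 mitosis members differed from this, since replicate 1 was the lowest library for 13 of them in both groups. Replicate 3 was the highest for 14 of them in control and for 13 in KO. Mki67 and Top2a were also not called without the variance trend (adjusted p = 0.103 and 0.0603), and Mki67 and Ccnb1 not under quantile normalization (0.0729 and 0.171). Mcm3 and Pcna stayed under 1.5-fold (0.50 and 0.57) with Rn45s left out of the total. That scaling called Mcm5 (-0.69) and Rrm1 (-0.67) lower, and the same total with Rn45s called Rrm1 lower (-0.59). At this depth a member with 3 reads in a library, such as Birc5, has a fold change of low precision.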

Other observations

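Cyclins and CDKs that act on transcription rather than on division are a family close to the members. Of 12 such genes tested, 6 rose (50%, beside 22.2% of all genes) and none fell by limma at the thresholds used. At an unadjusted p under 0.05 and any fold, 1 was lower (Cdk7, which also activates the CDKs of the cycle), and edgeR and DESeq2 gave the same counts of 0 and 1. The median log2 fold change was 0.58. Cdk13 was at 2747, 2697 and 2656 in control and at 5704, 5973 and 5603 in KO libraries, with a log2 fold change of 1.09 (SE 0.08, adjusted p = 1.04e-06). Cdk12, its paralog and a kinase of the elongating polymerase, went from 2868 ± 17.0 to 5160 ± 195, and Cdk19, a kinase of the Mediator complex, from 2848 ± 174 to 5544 ± 274. Ccnk, the cyclin that Cdk12 and Cdk13 share, was at 1989 ± 98.2 and 2272 ± 154 and was not called. With Rn45s left out of a common total, 3 of the 12 genes were called.

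Among the members of the further lists, 3 genes were picked out after their values were seen. Rbl1, which encodes the Rb relative p107, was at 352, 378 and 359 in control and at 1052, 865 and 1148 in KO libraries (log2 fold change 1.48, SE 0.13, adjusted p = 4.99e-06). Lin9, a core subunit of the DREAM complex, was at 237, 256 and 290 in control and at 709, 688 and 706 in KO libraries (log2 fold change 1.43). Cdkn2a, the INK4 gene of p16 and p19Arf, was at 2.92, 2.06 and 1.58 in control, or 2, 3 and 1 reads, and at 26.8, 24.5 and 15.2 in KO libraries, or 27, 62 and 10 reads (log2 fold change 2.84, SE 0.52, adjusted p = 0.000837). All 3 were higher in each KO library than in any control library, as were 32.4% of all genes tested.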
